A study of Canis lupus familiaris with 60 samples.

Results

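IL13RA2, IL13 and IL4 were followed in the skin of Beagle dogs before and after a patch test with house dust mite. The members were all probes of the array whose identifier, without its version, was the dog transcript of IL13RA2 (NM_001003075), IL13 (NM_001003384) or IL4 (NM_001003159). These are 3 of 54633 distinct identifiers, with 7 of the 60068 probes: 3 for IL13RA2, 1 for IL13 and 3 for IL4, on 17 of 61657 spots. The brightest IL13RA2 probe (A_11_P051016) was printed on 11 spots of each array and is the probe meant below unless another is named.

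The 12 dogs were 2 to 3 years old. The 6 sensitized dogs (4 males and 2 females) had been sensitized through the skin to Dermatophagoides farinae, and the 6 nonsensitized dogs (2 males and 4 females) had not. Each dog gave 5 punch biopsies of shaved chest skin. The first came from untreated skin (0 hr), and the others from under patches with 75 mg of mite paste (allergen) or 50 µl of saline, taken 6 hr and 24 hr later. This makes 10 groups of 6 arrays, 1 array per biopsy. The saline sites lay on dogs that wore the allergen patch at the same time, and sensitization was experimental, not a natural atopic dermatitis. The 24 hr allergen biopsy of dog 2839 (sensitized) was left out, which left 59 arrays and 5 in that group.

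IL13 and IL4 are cytokines of type 2 immunity, made by T helper 2 cells, type 2 innate lymphoid cells, mast cells and basophils, and their genes lie next to each other. They act on keratinocytes, fibroblasts and macrophages through receptors that contain the IL4 receptor alpha chain and signal through STAT6. IL13RA2 is a separate chain that binds IL13 tightly. It is often described as a decoy receptor, and IL4 and IL13 induce it in many cell types. In atopic skin, type 2 cytokines are known for lowering epidermal barrier proteins and for raising chemokines that draw T cells and eosinophils.

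On these arrays the median processed signal ranged from 81.7 to 146.0 and the share of spots well above background from 68.8% to 80.2%. The array left out had the lowest values of all, 71.0 and 67.6%. Levels are given as log2 values after variance stabilization, a scaling that flattens the log scale near background, so that differences of dim probes are understated. A gene was called when its adjusted p was below 0.05 and its change at least 1.5-fold. Each gene was tested in 19 comparisons. In whole skin, fewer cells of a type and less RNA per cell cannot be told apart.

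IL13RA2 was measured on every array. Its brightest probe was well above background on 59 of 59 arrays and the other probes on 58 (A_11_P148078) and 54 (A_11_P184983). The SD between the 11 spots of an array had a median of 0.09 on the log2 scale, against a pooled SD of 0.44 between dogs of a group. In untreated skin the level ran from 5.69 to 6.05 in sensitized dogs, with a median of 5.91, and from 5.40 to 5.87 in nonsensitized dogs, with a median of 5.79. The groups overlapped, and the difference of 0.16 (SE 0.25, adjusted p = 1.0 in limma) was within the spread between dogs. Of all probes, 0.00218% were called in untreated skin.

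At 6 hr the level of IL13RA2 stayed near that of untreated skin. In sensitized dogs its median was 5.74 at saline sites (5.59 to 6.14) and 6.15 at allergen sites (5.67 to 6.98). In nonsensitized dogs it was 5.82 at saline sites (5.72 to 6.21) and 5.95 at allergen sites (5.44 to 6.36). All 4 ranges overlapped each other and those of untreated skin. None of the 4 differences from untreated skin was called, the largest being 0.34 at the allergen sites of sensitized dogs (SE 0.25, adjusted p = 0.343). Over all probes, the shares called against untreated skin at 6 hr were 3.88% (allergen) and 2.65% (saline) in sensitized dogs and 1.61% and 2.26% in nonsensitized dogs.

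By 24 hr IL13RA2 was higher than in untreated skin at every kind of site in both classes of dog, and no 24 hr array overlapped the untreated arrays. In sensitized dogs the saline sites read 7.43 (dog 2838), 7.72 (2839), 7.43 (2840), 7.23 (2841), 8.81 (2853) and 7.46 (2855). The allergen sites read 8.94 (2838), 8.11 (2840), 7.98 (2841), 9.56 (2853) and 8.94 (2855). The allergen site was the higher one in all 5 of these dogs, and dog 2853 was the highest at both.

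In nonsensitized dogs the order was turned. The saline sites read 8.19 (dog 2704), 7.85 (2716), 9.08 (2800), 8.39 (2802), 8.02 (2845) and 8.94 (2847). The allergen sites read 7.89 (2704), 7.19 (2716), 6.76 (2800), 6.25 (2802), 7.21 (2845) and 8.01 (2847). The allergen site was the lower one in all 6 dogs, most of all in dogs 2800 and 2802.

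**Figure D1:**
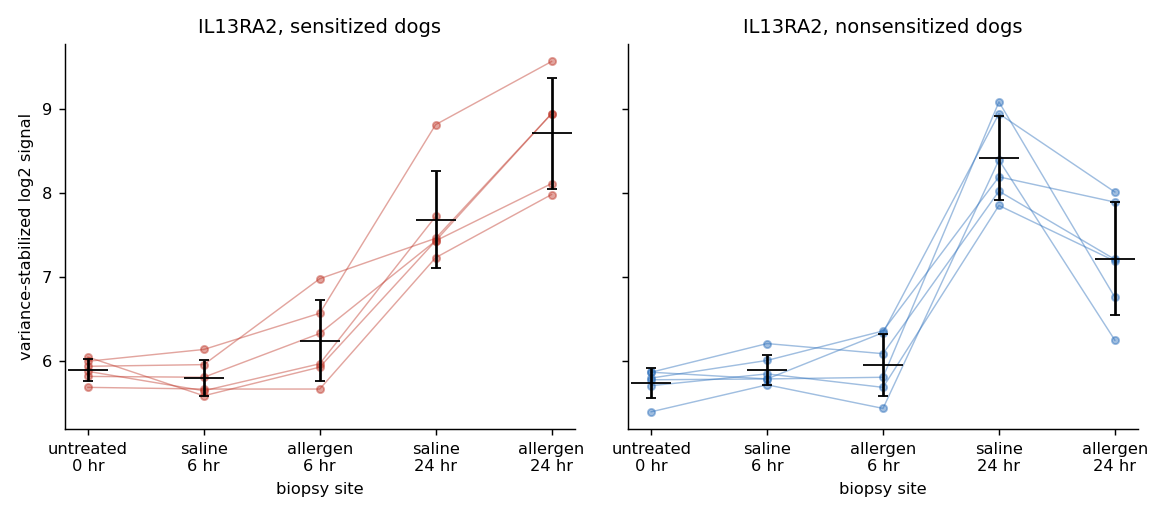
Variance-stabilized log2 signal of IL13RA2 (brightest probe) at each biopsy site, with a line for each dog and the group mean and SD in black (n = 6, but 5 for the 24 hr allergen sites of sensitized dogs). All 24 hr points lie above the untreated points, and the lines between the 24 hr saline and allergen sites rise in sensitized dogs (mean 7.68 to 8.71) and fall in nonsensitized dogs (8.41 to 7.22).

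Against untreated skin, the rise at 24 hr was 2.81 at allergen sites of sensitized dogs (7.0-fold, SE 0.26, adjusted p = 5.64e-11) and 1.78 at their saline sites (3.45-fold, SE 0.25, adjusted p = 9.25e-07). In nonsensitized dogs it was 1.48 at allergen sites (2.79-fold, SE 0.25, adjusted p = 3.69e-06) and 2.67 at saline sites (6.38-fold, SE 0.25, adjusted p = 2.11e-11). Large parts of the array were called in the same comparisons: 13.8% and 9.49% of all probes in sensitized dogs and 17.0% and 22.7% in nonsensitized dogs, allergen before saline. The untreated arrays lay on slides 6 to 8 and all but 1 of the 24 hr arrays of the fit on slides 1 to 3. With the slide as a block the rise was 1.06 (adjusted p = 0.27) at saline sites of sensitized dogs, 0.75 (0.629) at allergen sites and 1.93 (0.0623) at saline sites of nonsensitized dogs, and with the scan session as a block the rise at allergen sites of nonsensitized dogs was 1.28 (0.243).

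The study asked whether allergen, set against saline, acted differently on sensitized than on nonsensitized skin. This is the interaction: the allergen minus saline difference of sensitized dogs less that of nonsensitized dogs. At 24 hr it was 2.22 for IL13RA2 (4.65-fold, SE 0.36, 95% interval 1.51 to 2.93, adjusted p = 0.00141). The other probes gave 2.03 (A_11_P148078, SE 0.33) and 1.96 (A_11_P184983, SE 0.32), both with an adjusted p of 0.00141. Of the 45972 probes tested 430 were called, 0.935%, of which 275 were higher and 155 lower.

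The interaction had a part from each class of dog. Within sensitized dogs, allergen sites were above saline sites by 1.02 (2.03-fold, SE 0.26, adjusted p = 0.0444), in a comparison in which 0.274% of probes were called. The other probes gave 0.92 (adjusted p = 0.0587) and 0.91 (0.0511), short of the threshold. Leaving out any of dogs 2716, 2838, 2839, 2840, 2841, 2845 and 2855 also took the brightest probe past 0.05, with differences of 0.91 to 1.12 and adjusted p of 0.0515 to 0.272. So did 75th percentile scaling (adjusted p = 0.0657), unscaled signals (0.24), no filter (0.095) and a fit of the 24 hr arrays alone (0.257). Within nonsensitized dogs, IL13RA2 at allergen sites fell by 1.19 (2.29-fold, SE 0.25, adjusted p = 0.00375; 0.766% of probes called), and by 0.97 (adjusted p = 0.103) without dog 2800 or by 1.00 (0.0757) without dog 2802.

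Between the classes, sensitized dogs had more IL13RA2 than nonsensitized dogs at 24 hr allergen sites, by 1.49 (2.81-fold, SE 0.26, adjusted p = 7.14e-05). The ranges overlapped only between 7.98 and 8.01. At this site 7.13% of all probes were called. At 24 hr saline sites the difference was -0.73 (SE 0.25, adjusted p = 0.0621), short of the threshold, with 2.37% of probes called.

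Each dog served as its own control in the plot of differences within dogs. At 24 hr the allergen minus saline difference of IL13RA2 ran from 0.67 to 1.51 in 5 sensitized dogs and from -2.32 to -0.30 in 6 nonsensitized dogs, with no overlap. An exact two-sided permutation of the class over the 11 dogs gave p = 0.00433, the smallest that its 462 splits can give. At 6 hr the differences ran from 0.00 to 1.01 in sensitized dogs (mean 0.44 ± 0.33, SD, n = 6) and from -0.28 to 0.55 in nonsensitized dogs (0.06 ± 0.33, SD, n = 6). The exact permutation p was 0.0823 over 924 splits.

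In the limma fit the 6 hr interaction of IL13RA2 was 0.38 (SE 0.35, 95% interval -0.32 to 1.08, adjusted p = 1.0), and 0.0% of all probes were called, with 525 at an unadjusted p below 0.05. The allergen minus saline difference at 6 hr was 0.44 in sensitized dogs (adjusted p = 0.615; 0.418% of probes called) and 0.06 in nonsensitized dogs (adjusted p = 0.99; 0.0348% called). The classes did not differ past the threshold at 6 hr allergen sites (0.29, adjusted p = 0.832) or saline sites (-0.09, adjusted p = 1.0), with 0.0% of all probes called in either and 2839 and 1623 at an unadjusted p below 0.05.

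**Figure D2:**
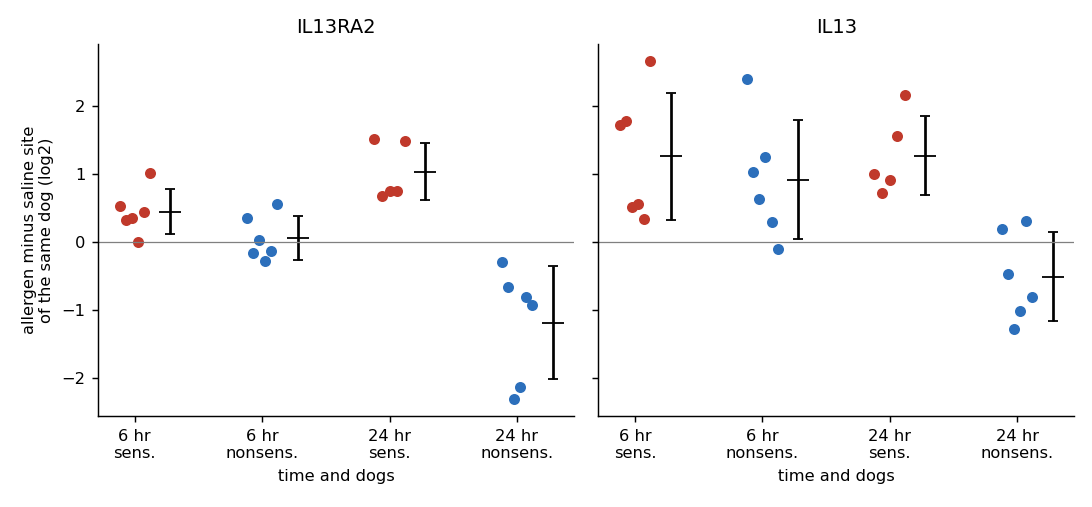
Allergen minus saline site of the same dog (log2) for IL13RA2 and IL13 at 6 hr and 24 hr, 1 point per dog, with the mean and SD beside the points. For IL13RA2 at 24 hr all 5 sensitized dogs lie above 0 and all 6 nonsensitized dogs below 0, and for IL13 all 5 sensitized dogs lie above the highest nonsensitized dog (0.72 against 0.31).

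The slide of the array was only in part shared between the groups at 24 hr. Slides 2 and 3 held all 4 kinds of 24 hr array, and within them the interaction of IL13RA2 was 1.15 and 3.45. On slide 3, which holds all 24 hr arrays of the second scan session, the nonsensitized dogs were represented by dog 2802 alone. Within the first scan session, with 1 allergen array of a sensitized dog, the interaction was 1.46. These values have no test of their own.

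Ordered by mean, IL13RA2 was highest at 24 hr allergen sites of sensitized dogs (8.71 ± 0.66, SD, n = 5), then at 24 hr saline sites of nonsensitized dogs (8.41 ± 0.50, n = 6). Next came saline sites of sensitized dogs (7.68 ± 0.57) and allergen sites of nonsensitized dogs (7.22 ± 0.67), and then the 6 hr and untreated groups, between 5.74 and 6.24. Each group overlapped its neighbour in this order. 

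IL13 was a dim gene in this skin. Its probe (A_11_P0000020087) was well above background on 32 of 59 arrays, and on none of the 12 untreated arrays, where the processed signal ran from 2.04 to 13.5. At 6 hr its signal passed that limit at 4 of 6 allergen sites and 1 of 6 saline sites in sensitized dogs, and at 6 and 3 of 6 in nonsensitized dogs. At 24 hr these counts were 5 of 5 and 3 of 6 in sensitized dogs, and 5 of 6 at both sites in nonsensitized dogs.

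The 24 hr allergen sites of sensitized dogs held the 2 brightest IL13 signals of the series. The 5 arrays read 61.2 (dog 2838), 21.4 (2840), 29.9 (2841), 320 (2853) and 155 (2855). Their saline sites read 15.0 (2838), 25.2 (2839), 7.30 (2840), 7.62 (2841), 79.4 (2853) and 26.7 (2855). Dog 2853 was again the highest at both sites, and the allergen site was the brighter one in each of the 5 dogs.

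In nonsensitized dogs the 24 hr allergen sites read between 5.33 and 48.4 with a median of 26.5, and the saline sites between 15.8 and 118 with a median of 33.6. The groups overlapped. At 6 hr the allergen sites of both classes lay in the same range, 12.7 to 99.8 in sensitized dogs (median 49.6) and 23.6 to 88.0 in nonsensitized dogs (median 26.6), while the saline sites had medians of 3.72 and 15.3.

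**Figure D3:**
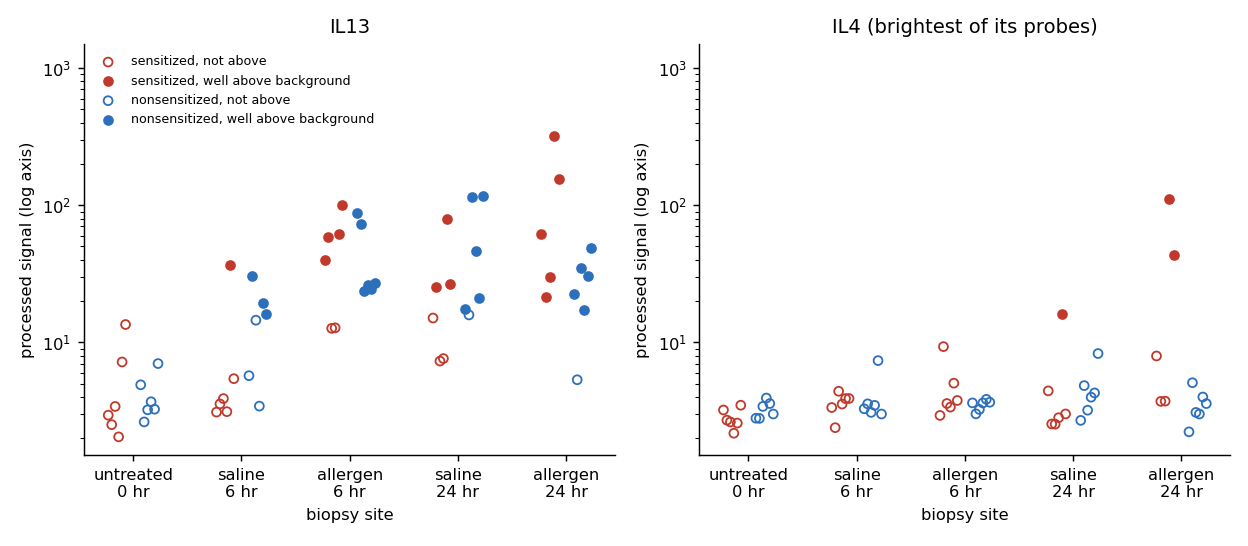
Processed signal (log axis) of IL13 and of the brightest of the IL4 probes at each biopsy site, 1 point per array of the fit, filled where the probe was well above background. IL13 is open in all 12 untreated arrays and filled on 5 of 5 arrays at the 24 hr allergen sites of sensitized dogs, and IL4 is filled on 3 arrays, all of sensitized dogs at 24 hr.

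Against untreated skin, where IL13 had only a bound, its level was at least 2.64-fold higher at 6 hr allergen sites of sensitized dogs (adjusted p = 0.000767) and at least 2.28-fold higher in nonsensitized dogs (0.00263). This bound sets the mean over all arrays of the brighter group against the lowest signal that counted as well above background on each untreated array, and arrays of the brighter group that were not well above background enter at their measured signal. The bound is only approximate where there are such arrays. At 24 hr it was at least 3.91-fold at allergen sites of sensitized dogs (adjusted p = 5.61e-06). In nonsensitized dogs it was at least 1.5-fold at allergen and 2.14-fold at saline sites (0.00655 and 0.000134). At 24 hr saline sites of sensitized dogs IL13 was called too (0.0134), without a bound, because only 3 of 6 arrays were well above background. At 6 hr allergen sites IL13 was thus called against untreated skin and IL13RA2 was not, a difference between the genes that was not tested. At 6 hr saline sites IL13 was not called (adjusted p = 0.287 in sensitized and 0.103 in nonsensitized dogs). No bound is given there, because only 1 of 6 and 3 of 6 arrays were well above background. With the slide as a block none of the 6 called rises of IL13 passed the threshold (fitted differences of -0.02 to 1.75, adjusted p of 0.107 to 0.993).

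Allergen and saline sites differed for IL13 by 1.26 at 6 hr in sensitized dogs (SE 0.39, adjusted p = 0.14) and by 0.91 in nonsensitized dogs (SE 0.39, adjusted p = 0.906). At 24 hr the difference was 1.26 (SE 0.41, adjusted p = 0.164) in sensitized and -0.52 (SE 0.39, adjusted p = 0.736) in nonsensitized dogs. None of the 4 passed the threshold in this unpaired fit. The size depended on the scaling. At the saline sites of sensitized dogs only 1 of 6 arrays at 6 hr and 3 of 6 at 24 hr had IL13 above background. At 6 hr the difference in sensitized dogs was 2.70 (adjusted p = 0.0364) with 75th percentile scaling, 2.74 (0.0338) unscaled and 0.62 (0.259) with normexp, and at 24 hr it was 1.95 (0.243), 1.94 (0.504) and 0.69 (0.178). With all 60 arrays weighted the 24 hr difference was 1.88 (0.00298). With the dog as a block, which uses that all biopsies of a number came from 1 animal, the differences in sensitized dogs were called at 6 hr (1.26, adjusted p = 0.0253; 0.887% of probes called) and at 24 hr (1.23, adjusted p = 0.024; 1.08% called).

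The 24 hr interaction of IL13 was 1.78 (SE 0.56, 95% interval 0.65 to 2.91, adjusted p = 0.096; 0.98 to 2.79 over the 26 alternatives), and 1.75 with the dog as a block (SE 0.46, adjusted p = 0.0152; 3.53% of probes called). The differences within dogs ran from 0.72 to 2.16 in sensitized and from -1.29 to 0.31 in nonsensitized dogs and did not overlap (exact permutation p = 0.00433). At 6 hr the interaction was 0.35 (SE 0.55, adjusted p = 1.0; exact permutation p = 0.515). At 24 hr allergen sites sensitized dogs had more IL13 than nonsensitized dogs, by 1.16 (2.24-fold, SE 0.41, adjusted p = 0.0333). That call was lost without dog 2853 (0.76, adjusted p = 0.152), 2855 (0.92, 0.123), 2716 (1.04, 0.071), 2802 (1.08, 0.059), 2845 (1.20, 0.0526) or 2800 (1.21, 0.0517). It was lost too with the slide (1.32, adjusted p = 0.0866) or the scan session (1.06, 0.124) as a block, and under other settings given below. Within slides 2 and 3 the interaction of IL13 at 24 hr was 1.26 and 2.76, and within the first scan session 0.94.

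IL4 was at background in nearly all of the skin. Its probes were well above background on 3, 2 and 3 of 59 arrays (A_11_P0000019877, A_11_P053456 and A_11_P053556), all from sensitized dogs at 24 hr and none of 30 from nonsensitized dogs. At the 24 hr allergen site the signals of these probes were 111, 62.4 and 103 in dog 2853 and 43.4, 24.8 and 47.4 in dog 2855. At the 24 hr saline site of dog 2853 they were 16.2, 4.75 and 20.8, of which the second was not well above background. On the other 24 hr allergen arrays of sensitized dogs the signals were 3.01 to 7.95.

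Thus 2 of 5 sensitized dogs had IL4 well above background at the allergen site, the same dogs that had the highest IL13 there. No IL4 probe passed the filter on dim probes, so IL4 was left out of the limma fit of the other genes. In a fit without that filter, the classes differed at 24 hr allergen sites for all 3 probes (adjusted p = 0.0018, 0.00143 and 0.0027; 7.66% of all probes called), and so did these sites of sensitized dogs from untreated skin (0.000114, 9.93e-06 and 0.000434; 14.2% called). Allergen and saline sites of sensitized dogs differed at 24 hr for A_11_P053456 (adjusted p = 0.0182) and not past the threshold for the other probes (0.0873 and 0.135; 0.156% called), and no interaction passed it (0.146, 0.0713 and 0.2; 0.391% called). No size is given for these differences, because no array of the nonsensitized dogs or of untreated skin measured IL4 above background and 2 of the 5 allergen arrays did. The fit shares its estimate of the spread over all groups. At 24 hr allergen sites the SD of the IL4 probes was 0.74 to 1.05 in sensitized and 0.19 to 0.22 in nonsensitized dogs. The p-values thus do not carry the spread between the sensitized dogs. The 3 probes read the same gene on the same arrays, and no dog was left out of this fit.

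The biopsy that was left out, from the 24 hr allergen site of dog 2839, had an IL13RA2 signal of 261 against 237 at the saline site of the same dog. Its IL13 signal was 10.9 and its IL4 signals 3.64 to 4.50, none of them well above background. With all 60 arrays IL13 was thus well above background on 5 of 6 arrays of that group and IL4 on 2 of 6.

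Other genes of the type 2 pathway were read from 5 lists of ligands, receptors, signalling, lymphocyte and target genes. Of 57 listed genes besides the members 20 could be named on the array and 18 passed the filter. The IL4 receptor alpha chain (IL4R), IL13RA1, STAT6, JAK1 and TSLP were not among those named, so they were not read. In the 24 hr interaction 4 of the 18 were called, all of them higher, and the median over the 18 was 0.90, against -0.004 over all probes and 0.935% of probes called. Of the 18, 5 could be named only through the list of genes that the study called on these samples, so their calls are not independent. Among the 13 named through RefSeq 2 were called and the median was 1.06. The count rested on single dogs: none of the 18 was called without dog 2855, 1 without 2800 or 2802, 2 without 2840 or 2845, and 8 without 2704. The share over all probes includes many without a name. The share called among the 1286 named genes past the filter was not computed.

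The ligand IL31, a T cell cytokine that causes itch, passed the limits in the 24 hr interaction (adjusted p = 0.0429), and no size is given because most signals of nonsensitized dogs were near background. At 24 hr it was above background at 5 of 5 allergen and 5 of 6 saline sites in sensitized dogs and at 1 of 6 of either site in nonsensitized dogs. On the untreated arrays it was above background on 12 of 12. Without IL31 the interaction called 3 of the listed genes. OSMR, a chain of the receptor for IL31, had an interaction of 1.07 (SE 0.24, adjusted p = 0.018, named only through the study's list).

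The epithelial cytokine IL33, read from its brightest probe, had an interaction of 1.55 (SE 0.65, adjusted p = 0.24). It was called with the dog as a block (1.57, SE 0.34, adjusted p = 0.00432). The study reported IL33 as higher in the same comparison, on its arrays and by quantitative PCR. In nonsensitized dogs IL33 was lower at 24 hr allergen than saline sites, by 1.78 (SE 0.45, adjusted p = 0.0252), and in sensitized dogs the difference was -0.24 (adjusted p = 0.963). IL5, the growth factor of eosinophils, did not pass the filter and was well above background on 15 of 59 arrays, 4 of them among the 5 allergen arrays of sensitized dogs at 24 hr.

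Among genes that IL4 and IL13 are known to induce, CCL13, a chemokine for eosinophils and monocytes, had an interaction of 1.42 (SE 0.34, adjusted p = 0.021). MRC1, the mannose receptor of alternatively activated macrophages, had one of 1.61 (SE 0.32, adjusted p = 0.00901, named only through the study's list). CCL17, a chemokine for T helper 2 cells, had an interaction of 2.68 that missed the threshold (SE 0.90, adjusted p = 0.116) and passed it with the dog as a block (2.71, SE 0.55, adjusted p = 0.00292). Within sensitized dogs CCL17 was higher at 24 hr allergen than saline sites by 2.87 (7.29-fold, SE 0.65, adjusted p = 0.0211), and in nonsensitized dogs the difference was 0.18 (adjusted p = 0.993). It was the only gene of the 18 called between allergen and saline sites in sensitized dogs at 24 hr, where 0.274% of all probes were called, and without dog 2838, 2839 or 2855 none was. With the dog as a block CCL24, another gene of the target list, was called there too (1.10, SE 0.28, adjusted p = 0.0164).

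In nonsensitized dogs 6 of the 18 were called at 24 hr, against 0.766% of all probes, of which 303 of 352 were lower. The 6 were all lower at allergen sites: IL33, OSMR, STAT3, SOCS3, CCL13 and MRC1. Without dog 2800 or 2802 the count was 2. Of the 13 genes named through RefSeq 3 were called. At 6 hr in sensitized dogs 4 were called, against 0.418% of all probes, of which 185 of 192 were higher. The 4 were all higher: SOCS3, a feedback inhibitor of cytokine signalling, by 1.45, CCL13 by 1.24, CHI3L1 by 1.75 and OSMR by 0.71. That count was 1 without dog 2855 and 2 without 2838, 2839 or 2853. It was 2 with normexp and 0 in a fit of the 6 hr arrays alone. Other genes of the lists did not pass in the 24 hr interaction, among them SOCS3 (1.35, adjusted p = 0.0557), IL2RG, the common gamma chain (0.29, 0.585), and GATA3, the transcription factor of T helper 2 cells (-0.83, 0.0693). With the dog as a block 12 of the 18 were called in the 24 hr interaction, in a fit that called 3.53% of all probes. GATA3 and RORA were lower and 10 were higher, among them SOCS3 (1.37, adjusted p = 0.0223). The 12 include RORA, GATA3, STAT3, MRC1 and OSMR, which were named only through the study's list.

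Of 4 measured epidermal genes that IL4 and IL13 are known to lower, 1 was called, against 0.935% of all probes (155 of them lower): FLG2, a filaggrin-like protein of the horny layer, with an interaction of -1.41 (SE 0.32, adjusted p = 0.0191, named only through the study's list). OCLN, a tight junction protein, had -0.56 (adjusted p = 0.0194), below the 1.5-fold limit. The median of the 4 was -0.58.

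**Figure D4:**
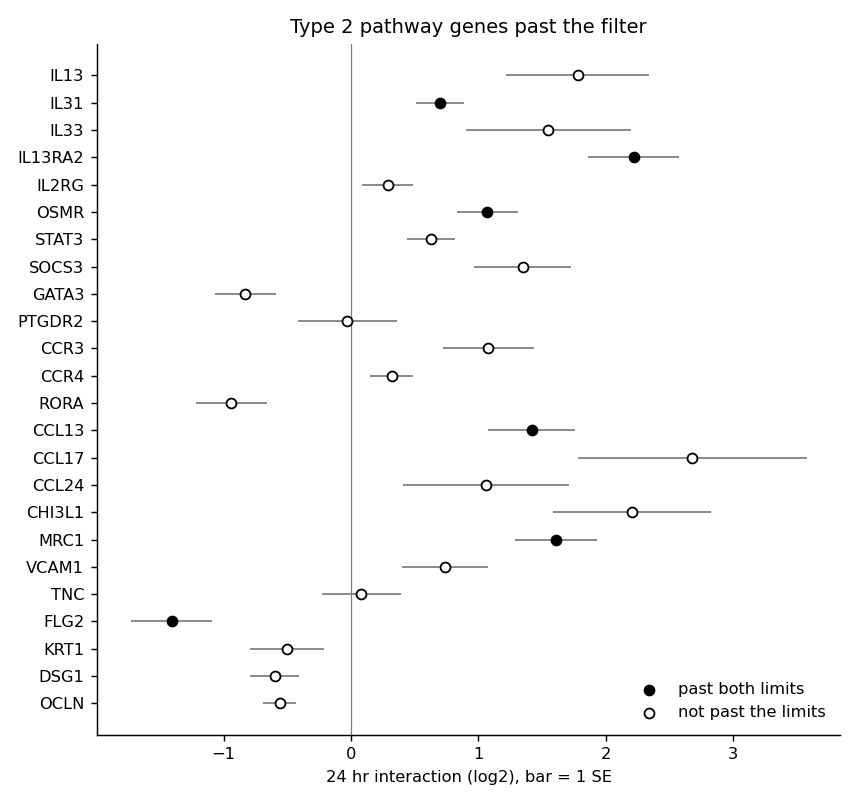
The 24 hr interaction (log2, with a bar of 1 SE) of the type 2 and epidermal genes that passed the filter, filled where past both limits. IL13RA2 (2.22), MRC1 (1.61), CCL13 (1.42), OSMR (1.07), FLG2 (-1.41) and IL31 are filled, the last resting in part on signals near background, and CCL17 has the widest bar (SE 0.90).

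Markers of the cell types in skin were read from lists as well. Of 5 measured T cell markers CD28 (0.96, adjusted p = 0.008) and the activation receptor ICOS (1.51, adjusted p = 0.0206) were called in the 24 hr interaction, which called 0.935% of all probes here and for the markers below, while LCK (0.71, adjusted p = 0.072), CD4 (0.04) and CD8A (0.16) were not. The mean level of the 5 ran from 6.42 to 7.09 at 24 hr allergen sites and from 6.03 to 6.64 at saline sites of sensitized dogs, and from 5.89 to 6.25 and 5.93 to 6.48 in nonsensitized dogs. HDC, which makes histamine, was the 1 called of 5 mast cell markers (1.5, adjusted p = 0.0154, named only through the study's list). MS4A2 (1.30, adjusted p = 0.074), FCER1A (1.02, 0.149), CMA1 (0.66, 0.465) and KIT (0.09, 0.939) were not, and the median of the 5 was 1.02. In the same order of sites, the mast cell markers had means of 8.51 to 9.62, 8.47 to 9.33, 8.39 to 8.98 and 8.79 to 9.94.

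Of 3 macrophage markers MRC1 was called, with means of 9.53 to 10.5 and 8.87 to 10.1 at allergen and saline sites of sensitized dogs and 9.00 to 9.57 and 9.53 to 10.6 in nonsensitized dogs. Of 3 eosinophil and neutrophil markers none was called: S100A8 was at 2.83 (SE 0.95, adjusted p = 0.118), CCR3 at 1.08 (0.113) and CXCR2 at 0.06 (0.942). The means of the 3, to which S100A8 added the largest difference, were 9.33 to 9.54, 7.91 to 8.84, 7.84 to 8.76 and 8.18 to 9.22 in that order. Of 4 keratinocyte markers DSP was called (-0.62, adjusted p = 0.041, named only through the study's list), with means of 14.2 to 14.6, 14.1 to 14.9, 14.7 to 15.3 and 14.3 to 14.8. None of 4 fibroblast or 2 endothelial markers was called. The part of cell numbers in the levels of IL13RA2 and IL13 was not tested. Of 6 measured type 1 and type 17 cytokine genes none was called in the 24 hr interaction (median 0.61). Within sensitized dogs at 24 hr 1 of the 6 was called between allergen and saline sites, against 0.274% of all probes. This was IL17F (adjusted p = 0.00289, named only through the study's list), higher at allergen sites, where it was above background on 5 of 5 arrays, against 1 of 6 saline arrays and 5 of 6 untreated arrays of these dogs. Its interaction missed the threshold (adjusted p = 0.0611), and no size is given because most of the saline signals were near background. IFNG was above background on 2 of 59 arrays and IL12B on 1.

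The named genes whose levels were most like those of IL13RA2 were found by Pearson's r over the 59 arrays, among 1261 named genes. They were CCL19 (0.885), MRC1 (0.877), SLC35G2 (0.871), CTSC (0.866), EMILIN1 (0.863), LRRC25 (0.860), Q9TU04_CANFA (0.859) and CD47 (0.857). Over the 10 group means their r lay between 0.932 and 0.979. The arrays share dogs, slides and the step from untreated to 24 hr skin, so these values only describe the likeness, and 5 of the 8 were named only through the study's list. CCL19, a chemokine for T cells and dendritic cells, had mean levels of 8.80 ± 0.20 (SD, n = 6) in untreated skin and 11.9 ± 0.37 (n = 5) at 24 hr allergen sites of sensitized dogs. The lowest r were those of NECAB3 (-0.831), ALCAM (-0.815) and CCDC189 (-0.810).

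**Figure D5:**
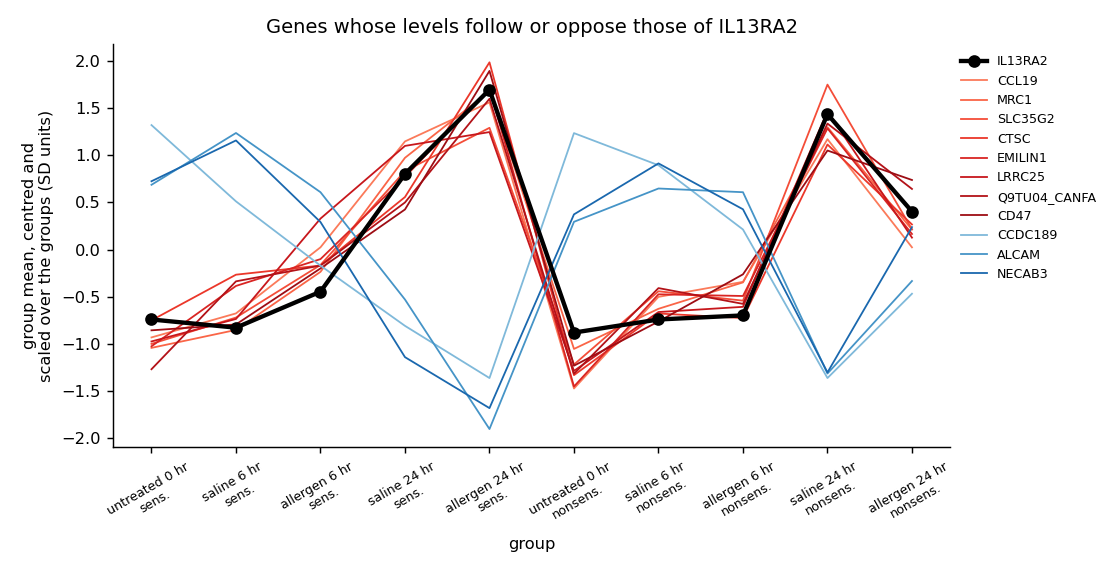
Group means of IL13RA2 (black), of the 8 named genes most like it (red) and of the 3 least like it (blue), each centred and scaled over the 10 groups (SD units). The red lines follow the black one to the peaks at 24 hr allergen sites of sensitized dogs and 24 hr saline sites of nonsensitized dogs, where the blue lines have their lowest points.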

How the data were processed

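Cy3-labelled RNA of 60 skin biopsies was hybridized to one-colour Agilent arrays. Per the submitters' processing notes, the deposited intensities come from Agilent Feature Extraction 10.7.3.1; its processed signal is background-subtracted and not scaled between arrays. The authors' series table holds the same intensity values. Per the labels, each number is 1 dog. The well-above-background and outlier flags are the deposited ones.

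Outlier spots were set to missing, and a spot was kept where some group had it well above background on 5 or more arrays (45972 probes). Signals were normalized by a reimplementation of vsn, and spots of a probe averaged. The reimplementation was tested only on signals simulated from the same model with its own fitted settings, not against the original package. In R 4.3.3, limma 3.58.1 fitted the 10 group means of 59 arrays, unpaired as in the study, with Benjamini-Hochberg adjustment over all probes of a comparison. Genes were named through RefSeq accessions (1066 symbols) and the gene list of the study (379 more). Deviations from group means correlated with a median of 0.386 between arrays of 1 dog and -0.0437 between dogs. Normexp used spot medians.

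Members and lists were chosen with earlier results of these data known. Named genes were the members, pathway genes called in the 24 hr interaction, a fixed set of type 2 genes, and the genes most and least like IL13RA2. Other called genes and markers were named after their values were seen. Alternatives were other scalings, filters and blocks, separate fits per time point, all 60 arrays, the mean over probes, and each dog left out. The number of arrays limits precision. Python 3.11.15, scipy 1.17.1 and matplotlib 3.10.9 were used.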

Additional observations from a re-analysis of the deposited data

Results flagged for a closer look

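The response of IL13RA2 to allergen differed between sensitized and nonsensitized dogs at 24 hr by 2.22 (log2), the interaction tested with limma above.

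Some arrays stood far from the rest of their group, by Dixon's test at the 5% level, in 11 of 70 tests of a member probe in a group, where chance gives about 3.5. The probes of a gene share the arrays, so these tests are not independent. The same stray array can be flagged by several probes. Dog 2853 was the stray highest array at 24 hr saline sites for all IL13RA2 probes (8.81, 8.20 and 7.75, next values 7.72, 7.08 and 6.86) and for IL13 (6.50, next 5.24), and at the 6 hr saline site for IL13 (5.78, next 4.51). In untreated skin, dog 2802 was lowest for IL13RA2 on the log2 scale (5.40, next 5.71), where 1 of its 11 spots, flagged as an outlier by the scanner software at a signal of 183, does not enter the value, and dog 2838 was highest for a pair of IL4 probes (4.38 and 4.35, next 3.71 and 3.63), neither well above background. The other stray values were of IL4 probes not well above background: dog 2839 lowest at 6 hr allergen sites (3.95 and 3.98) and dog 2802 lowest at the 24 hr allergen site (4.06).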

How the results depend on the processing

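The 24 hr interaction of IL13RA2 was 1.84 to 2.46 over the 27 alternatives run, and every fit among them passed the threshold. Leaving out a dog gave 1.99 to 2.4. The exact permutation, counted among the 27, gave a single p of 0.00433, not adjusted over the probes, and is no call on that threshold. With the dog as a replicate block the interaction was 2.20, and the block changed no call of IL13RA2 in the comparisons it was run for. The comparisons between the classes were not among these. For IL13 and for pathway counts, normexp, random, slide and session blocks, separate fits per time point, array weights and the permutation were chosen after seeing the data. The cause of the changes below was not tested.

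The difference of IL13RA2 between allergen and saline sites of sensitized dogs at 24 hr missed the threshold with 75th percentile scaling (1.09), unscaled (1.08), without the filter (1.08) and in a fit of the 24 hr arrays alone (1.02). Leaving out a dog gave 0.91 to 1.12. In nonsensitized dogs it missed it in the fit of the 24 hr arrays alone (-1.19), and leaving out a dog gave -1.37 to -0.97. Between the classes at 24 hr saline sites it passed with all 60 arrays weighted (-0.72), with normexp (-0.64) and without dog 2802, with a range of -0.95 to -0.60. The calls of IL13RA2 against untreated skin that were lost with slide (1.06, 0.75 and 1.93) or session (1.28) as a block are those given in the report.

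For IL13, the 24 hr interaction ran from 0.98 (normexp) to 2.79 (unscaled) over 26 alternatives, and missed the threshold in 21. It passed with the dog as a replicate block (1.75) or random block (1.76), with the slide as a block (2.03) and with all 60 arrays weighted (2.20). The exact permutation of the dogs (1.78) gave a single p of 0.00433, not adjusted over the probes, and is no call on that threshold. Its difference between allergen and saline sites of sensitized dogs passed at 6 hr with 75th percentile scaling (2.70), unscaled (2.74) and with the dog as a block or random block (1.26 in both), and at 24 hr with the dog as a block (1.23), as a random block (1.24) and with 60 weighted arrays (1.88). Between the classes at 24 hr allergen sites it missed the threshold with 75th percentile scaling (1.78), unscaled (1.73), without the filter (1.64), with the slide as a block (1.32) or random block (1.13), with the session (1.06) and in the fit of the time point alone (1.16). Leaving out a dog gave 0.76 to 1.47.

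Against untreated skin, IL13 lost its calls in sensitized dogs at 6 hr allergen sites with slide (1.61) and session (1.43), at 24 hr allergen sites with slide (1.45), and at 24 hr saline sites with normexp (0.41), random slide (0.96) and session (0.82), and with the slide as a block it turned to -0.02. In nonsensitized dogs it lost them at 6 hr allergen sites with slide (1.75) and session (1.40), at 24 hr allergen sites with normexp (0.43), slide (0.11), random slide (1.13) and session (0.88), and at 24 hr saline sites with slide (0.67) and session (1.40). At 6 hr saline sites of nonsensitized dogs it passed with the dog as a block or random block (0.96 in both) and with 60 weighted arrays (1.14). All these values are fitted differences and not measured sizes, because no untreated array had IL13 well above background.

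Of the 18 pathway genes, the 24 hr interaction called 4, but 1 unscaled, 8 with 60 arrays, 7 with 60 weighted arrays, 12 with the dog as a replicate block or random block, and 0 to 8 without a dog (0 without 2855, 1 without 2800 or 2802, 2 without 2840 or 2845, 8 without 2704). Between allergen and saline sites of sensitized dogs 1 was called at 24 hr, but 0 unscaled or in the fit of the time point alone, 5 with 60 arrays, 3 with weights, 2 with the dog as a block and 0 to 2 without a dog (0 without 2838, 2839 or 2855, 2 without 2841 or 2853). At 6 hr 4 were called, but 2 with normexp, 0 in the fit of the time point alone and 1 to 4 without a dog (1 without 2855, 2 without 2838, 2839 or 2853). In nonsensitized dogs at 24 hr 6 were called, and 2 to 6 without a dog (2 without 2800 or 2802). IL4 is limited by its signal, above background on 3 arrays at most.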
